A study of Mus musculus with 12 samples.

Results

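The CCN genes Ccn1, Ccn2, Ccn3, Ccn4 and Ccn5 (older symbols Cyr61, Ctgf, Nov, Wisp1 and Wisp2) were followed in mouse stromal cells from culture and from injected mice with and without a tumour. The 5 genes were chosen by name from the family, and all 5 were found among the 21001 genes listed and passed the expression filter that left 12314 genes for testing. The cells came from C57BL/6 mice with no engineered mutation named in the labels, are labelled bone marrow stem cells and carried green fluorescent protein (GFP), and each of 4 groups had 3 RNA sequencing libraries. TUMOR cells were GFP cells sorted from the inoculation site after co-injection with red fluorescent LLC cells, a mouse lung carcinoma line. BM cells were GFP cells from the marrow of mice given that same mixture. HOMING cells were GFP cells from the marrow of mice given such cells under the skin, with no cancer cells named in the label. NC cells were the GFP cells in primary culture. The study's title names the pre-metastatic niche, and BM against HOMING compares marrow cells with and without co-injected tumour cells. The labels do not say whether the 3 libraries of a group came from separate animals, pools or cultures, so p-values measure the spread between these samples, which may be technical.

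CCN proteins are secreted into the matrix, where they act as signals more than as scaffold: they bind integrins, heparan sulfate proteoglycans and growth factors and so shape adhesion, migration and matrix production. Ccn1 and Ccn2 are textbook targets of the YAP and TAZ coactivators with TEAD factors, and both are also induced by TGF-beta and by serum through SRF. Ccn3 counteracts Ccn2 in several models of fibrosis. Ccn4 and Ccn5 were found as genes induced by Wnt signalling, and Ccn5 lacks the carboxy-terminal cystine knot module that the other members carry.

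Of the 5 members, Ccn1 alone had an entry in the RefSeq promoter table. Its upstream sequence is shown because the other TEAD targets are counted with it further on. The stretch covers the 250 bases before the start of Ccn1 on the minus strand of GRCm38.p6, chr3:145649986-145650235, a build other than the mm8 to which the reads were mapped. Capitals mark, from 5′ to 3′, a TEAD motif (GGAATG, here on the other strand as CATTCC), a CREB and ATF motif (TGACGT, here as ACGTCA) and a TATA box (TATAAA, searched on the gene's strand alone).
Ccn1 upstream: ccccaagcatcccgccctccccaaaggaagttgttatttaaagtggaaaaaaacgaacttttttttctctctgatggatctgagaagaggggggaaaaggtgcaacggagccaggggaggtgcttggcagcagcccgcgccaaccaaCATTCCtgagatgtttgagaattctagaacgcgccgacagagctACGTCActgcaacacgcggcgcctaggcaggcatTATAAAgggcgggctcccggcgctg
The matches begin 103, 59 and 25 bases before the start and do not overlap. Among 32851 windows of this length, 12.6% hold the TEAD letters, 6.47% the CREB and ATF letters and 7.59% the TATA letters. A match is a description of the letters and was not tested as a site.

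Levels are given as FPKM, the authors' length-scaled expression unit, which can be compared between genes. Each member was listed with 1 transcript, of 1784 to 5022 bases. Differences between groups are log2 ratios ± SE of the expected counts from the quasi-likelihood test of edgeR, positive when the group named first was higher. The verbs rose and fell, and the word called, stand for an adjusted p under 0.05 (over 12314 genes) together with a difference of at least 2-fold. The libraries held 43232145 to 46166519 expected counts. Of the replicate pairs, those with TUMOR replicate 1 or NC replicate 3 were furthest apart (Pearson r of 0.992 to 0.995 across genes, against 0.995 to 0.999 for the rest).

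Markers of other cells differed between the groups. The summed level of 12 leukocyte and neutrophil markers was 0.93 to 2.58 FPKM in TUMOR, 52.2 to 60.4 in BM, 1741 to 2559 in HOMING and 1.32 to 2.74 in NC. Mpo had 0 counts in TUMOR, and Elane and Mpo had 0 in NC. The 7 red cell markers summed to 1.17 to 2.15 FPKM in TUMOR, 3.00 to 3.53 in BM, 2107 to 3470 in HOMING and 0.31 to 0.89 in NC. The 9 macrophage markers gave 25.0 to 25.7 FPKM in TUMOR, 52.8 to 53.6 in BM, 170.6 to 272.9 in HOMING and 13.4 to 19.3 in NC. Cd68 (mean 12.4 FPKM in TUMOR and 5.26 in NC) and Cd14 (11.3 and 9.98) made up most of the TUMOR and NC sums. Adgre1, C1qa and C1qb had 0 counts in TUMOR, and Cd163, C1qa and C1qb had 0 in NC. The 6 epithelial and carcinoma markers gave 70.0 to 115 FPKM in TUMOR, 6.38 to 7.02 in BM, 6.11 to 6.56 in HOMING and 2.26 to 4.56 in NC, with the keratins Krt8 and Krt19 making up nearly all of the TUMOR sum, while the adhesion gene Epcam had 2 counts over the TUMOR libraries. Megakaryocyte and endothelial markers stayed at or under 7.38 FPKM in sum in TUMOR, BM and NC, with the megakaryocyte sum at 29.8 to 41.4 FPKM in HOMING. The 14 stromal markers summed to 650.4 to 794 FPKM in TUMOR, 790.5 to 815.6 in BM, 697 to 733 in HOMING and 829.8 to 959 in NC, and the collagens, Prrx1, Pdgfra and Pdgfrb were present throughout. Thy1, Nt5e and Lepr, also used to define such cells, stayed under 1 FPKM on average in every group. In such sorted bulk samples, fewer cells of a type and less RNA per cell cannot be told apart. The part of these other cells in the CCN results was not tested.

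Ccn1, an integrin ligand that promotes adhesion and angiogenesis, was the most abundant member in every library. It stood at 302, 436 and 425 FPKM in TUMOR, 297, 305 and 296 in BM, 458, 447 and 439 in HOMING, and 296, 296 and 352 in NC. The HOMING libraries were higher than all others, and TUMOR replicate 1 lay among the BM and NC libraries, away from its own group. Means ± SD over 3 libraries were 388 ± 74.3 FPKM in TUMOR, 299.5 ± 4.95 in BM, 448 ± 9.67 in HOMING and 314 ± 32.4 in NC. Ccn1 was called in none of the 6 comparisons. Its differences under the 2-fold minimum were log2 -0.55 ± 0.11 in BM against HOMING (adjusted p 0.00109 in edgeR), 0.40 ± 0.11 in HOMING against NC (adjusted p 0.00666) and 0.33 ± 0.11 in TUMOR against BM (adjusted p 0.0198), where the libraries overlapped. In the order HOMING, TUMOR, NC and BM, no neighbours passed the test, with adjusted p of 0.11, 0.176 and 0.247 in edgeR. That level placed Ccn1 above 98.1 to 98.8% of the tested genes in each group.

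Ccn2, known for its part in fibrosis and in the response of stromal cells to TGF-beta, was lower in TUMOR than in any other group. Its levels were 24.3, 43.3 and 43.3 FPKM in TUMOR, 92.8, 95.1 and 90.1 in BM, 89.2, 85.1 and 90.4 in HOMING, and 58.7, 77.1 and 99.8 in NC. No TUMOR library reached any library of another group, while the NC libraries ran from below to above the BM and HOMING libraries. Ccn2 fell to 37.0 ± 11.0 FPKM in TUMOR, against 92.7 ± 2.50 in BM (log2 -1.37 ± 0.21, adjusted p 7.12e-05 in edgeR). Against HOMING, at 88.2 ± 2.76 FPKM, the log2 change was -1.27 ± 0.21 (adjusted p 0.000205). Against NC, at 78.5 ± 20.6 FPKM, it was -1.22 ± 0.21 (adjusted p 0.000147). The call against NC ended, at log2 -0.99 in both cases, without TUMOR replicate 1 or without NC replicate 3. The other groups did not pass the test against each other: BM against HOMING gave log2 0.10 ± 0.20, BM against NC 0.15 ± 0.20 and HOMING against NC 0.05 ± 0.20, with adjusted p of 0.516 to 0.826 in edgeR, and without NC replicate 1 the differences from NC turned to -0.03 and -0.13. Of the 6 epithelial markers, Krt8 and Krt19 were high in TUMOR, where Ccn2 was low. The other epithelial markers stayed at or under 0.33 FPKM on average in TUMOR. The part of these markers was not tested.

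Ccn3, a member that restrains growth in several cell types, was highest in BM and lowest in TUMOR. It measured 20.6, 27.7 and 27.9 FPKM in TUMOR, 70.1, 70.9 and 70.9 in BM, 47.4, 46.9 and 47.2 in HOMING, and 32.8, 30.9 and 47.0 in NC. The BM libraries lay above all others and the TUMOR libraries below all others, and NC replicate 3 reached the HOMING level. Ccn3 fell to 25.4 ± 4.16 FPKM in TUMOR, against 70.6 ± 0.433 in BM (log2 -1.52 ± 0.15, adjusted p 1.46e-06 in edgeR), the one call of this gene. BM against HOMING, at 47.2 ± 0.252 FPKM, gave log2 0.61 ± 0.14 (adjusted p 0.00265), TUMOR against HOMING -0.91 ± 0.14 (adjusted p 0.000178) and TUMOR against NC, at 36.9 ± 8.78 FPKM, -0.67 ± 0.14 (adjusted p 0.00104), all short of 2-fold. BM against NC gave 0.85 ± 0.14 (adjusted p 0.000196) and was called without NC replicate 3, at log2 1.08. HOMING against NC did not pass the test (log2 0.24 ± 0.14, adjusted p 0.152).

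Ccn4, a secreted factor that promotes osteoblast differentiation and fibroblast growth, separated the groups into a high and a low pair. Its levels were 8.26, 10.1 and 9.70 FPKM in TUMOR, 36.1, 35.6 and 35.4 in BM, 8.06, 7.95 and 7.74 in HOMING, and 33.0, 41.2 and 36.9 in NC. Every BM and NC library lay above every TUMOR and HOMING library, with no value between 10.1 and 33.0 FPKM. Ccn4 rose to 35.7 ± 0.383 FPKM in BM, against 7.92 ± 0.163 in HOMING (log2 2.20 ± 0.08, adjusted p 1.15e-09 in edgeR). It fell to 9.35 ± 0.968 FPKM in TUMOR, against 37.0 ± 4.13 in NC (log2 -2.11 ± 0.08, adjusted p 4.91e-10) and against BM (log2 -1.98 ± 0.08, adjusted p 1.38e-09). It also fell in HOMING against NC (log2 -2.34 ± 0.08, adjusted p 2.14e-10). Within the pairs the differences were small: BM against NC gave log2 -0.13 ± 0.08 (adjusted p 0.15) and TUMOR against HOMING 0.23 ± 0.08 (adjusted p 0.0331). Leukocyte and red cell markers were high in HOMING, where Ccn4 was low. The leukocyte sum was 0.93 to 2.58 FPKM in TUMOR, where Ccn4 was also low, and 1.32 to 2.74 FPKM in NC, where it was high. The part of other cells was not tested.

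Ccn5, which inhibits the growth and motility of smooth muscle cells, was the least abundant of the 5 and had its highest level in culture. It stood at 3.99, 5.21 and 4.70 FPKM in TUMOR, 0.84, 0.66 and 0.73 in BM, 1.89, 1.90 and 1.53 in HOMING, and 7.39, 7.89 and 8.34 in NC. No groups overlapped, and the order NC, TUMOR, HOMING and BM held for every library. The counts behind these levels were 1039 over the TUMOR libraries, 172 over BM, 403 over HOMING and 1854 over NC. Ccn5 fell to 0.743 ± 0.0907 FPKM in BM, against 7.87 ± 0.475 in NC (log2 -3.48 ± 0.14, adjusted p 3.86e-09 in edgeR), an 11.2-fold difference. In HOMING it fell to 1.77 ± 0.211 FPKM (log2 -2.26 ± 0.13 against NC, adjusted p 1.06e-08). TUMOR, at 4.63 ± 0.613 FPKM, lay below NC by less than 2-fold (log2 -0.89 ± 0.12, adjusted p 2.57e-05). It rose in TUMOR against BM (log2 2.59 ± 0.14, adjusted p 1.28e-08) and against HOMING (log2 1.37 ± 0.13, adjusted p 2.17e-06), and fell in BM against HOMING (log2 -1.22 ± 0.15, adjusted p 1.89e-05). Limma on log2(FPKM + 1), a scale that understates the change of low genes, gave -0.67 for the last of these and did not call it.

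**Figure D1:**
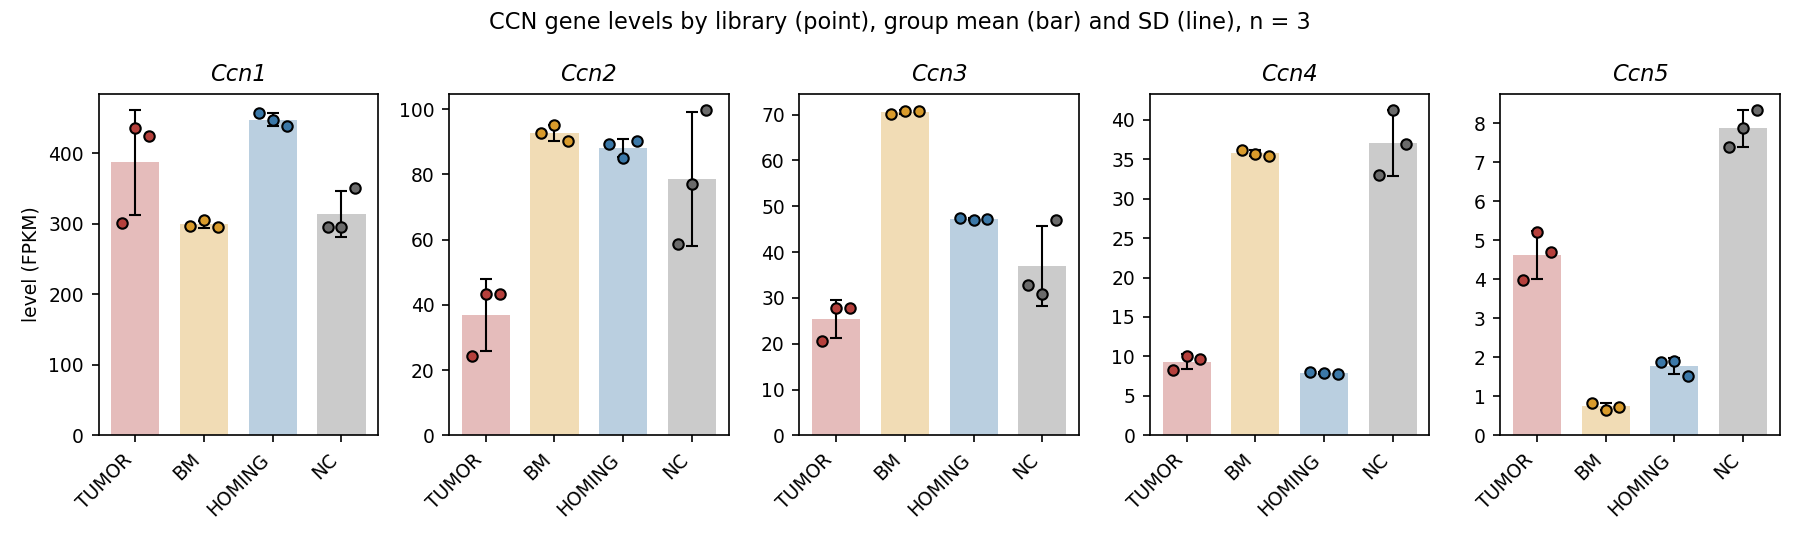
Levels of Ccn1 to Ccn5 in FPKM (vertical axes from 0, a scale for each gene) in TUMOR, BM, HOMING and NC, with points for the 3 libraries, bars for the mean and lines for the SD. Ccn4 averages 9.35 and 7.92 FPKM in TUMOR and HOMING, against 35.7 in BM and 37.0 in NC, while Ccn5 is highest in NC and lowest in BM.

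A further family member outside the 5, Ccn6, stood under the filter in every group and was not tested. Its mean level was 0.577 ± 0.10 FPKM in TUMOR, 0.12 ± 0.0529 in BM, 0.28 ± 0.111 in HOMING and 0.103 ± 0.0208 in NC (SD, n = 3 each), summed over an annotated transcript and one that the files give as unannotated. All of its TUMOR libraries lay above those of the other groups.

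The make-up of the family's transcripts differed by group. Ccn1 made up 83.2 to 84.1% of the summed FPKM of the 5 genes in TUMOR, 59.8 to 60.1% in BM, 74.9 to 75.9% in HOMING and 64.7 to 69.1% in NC. Ccn2 held 6.76 to 8.48% in TUMOR, 18.3 to 18.7% in BM, 14.5 to 15.4% in HOMING and 13.7 to 18.4% in NC. Ccn4 gave 1.90 to 2.30% in TUMOR, 7.02 to 7.27% in BM, 1.32 to 1.35% in HOMING and 6.78 to 9.11% in NC. The sum itself ran from 359 to 522 FPKM in TUMOR, 493 to 507 in BM, 586 to 605 in HOMING and 427 to 544 in NC, with HOMING above all other libraries. These shares are descriptions with no test.

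**Figure D2:**
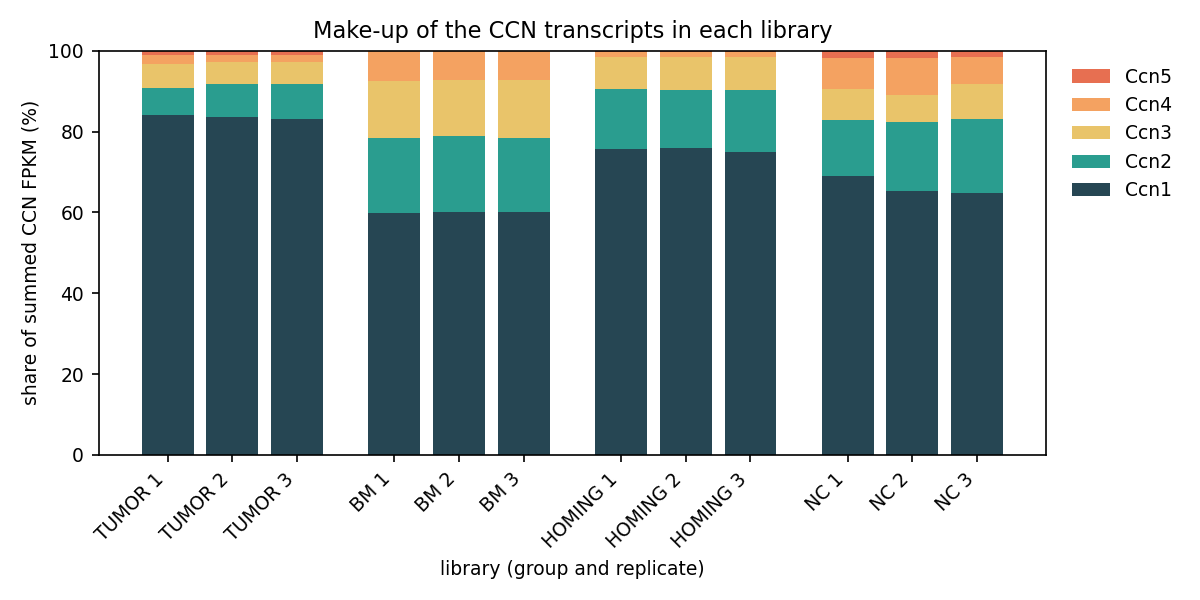
Share of the summed FPKM of the 5 CCN genes (vertical axis, %) taken by each gene in each of the 12 libraries. The Ccn1 share is 83.2 to 84.1% in TUMOR and 59.8 to 60.1% in BM, with HOMING and NC between them.

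Spread within groups also differed. Over the 3 libraries the coefficient of variation of Ccn1 to Ccn4 was 10.3 to 29.8% in TUMOR, 0.613 to 2.69% in BM, 0.535 to 3.13% in HOMING and 10.3 to 26.2% in NC. The widest was Ccn2 in TUMOR, where replicate 1 was low, and Ccn2 in NC came next. For Ccn5 it was 13.2% in TUMOR, 12.2% in BM, 11.9% in HOMING and 6.04% in NC.

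In BM against HOMING 1 of the 5 members rose (Ccn4) and 1 fell (Ccn5). Of all tested genes 10.4% were called there, 3.71% higher and 6.68% lower. In TUMOR against NC 0 rose and 2 fell (Ccn2 and Ccn4), against 16.4% of all genes called, 9.75% higher and 6.65% lower (59.4% of those calls were higher, and 69.7% with scaling by library size). In BM against NC 0 rose and 1 fell (Ccn5), against 11.5% called, 7.93% higher and 3.57% lower. With 5 members, such small counts say little about how the family compares with all genes. In HOMING against NC 0 rose and 2 fell (Ccn4 and Ccn5), against 14.3% called, 9.64% higher and 4.69% lower. In TUMOR against HOMING 1 rose (Ccn5) and 1 fell (Ccn2), against 10.8% called, 4.42% higher and 6.37% lower. TUMOR against BM, the injection site and the marrow of co-injected mice, held 4 calls: 1 rose (Ccn5) and 3 fell (Ccn2, Ccn3 and Ccn4), against 14.2% called, 6.95% higher and 7.28% lower. By adjusted p alone, with no minimum fold change, 4 members passed in BM against HOMING, where 58.1% of all genes did, 4 in TUMOR against NC (73.6%), 2 in BM against NC (66.6%), 3 in HOMING against NC (70%), 4 in TUMOR against HOMING (55%) and 5 in TUMOR against BM (69.6%). Those shares are so high that passing on p alone says little about the members. The comparisons share groups, so their counts are not independent of each other. Ccn4 and Ccn5 were called in opposite directions in both BM against HOMING and TUMOR against BM, and both fell in HOMING against NC.

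**Figure D3:**
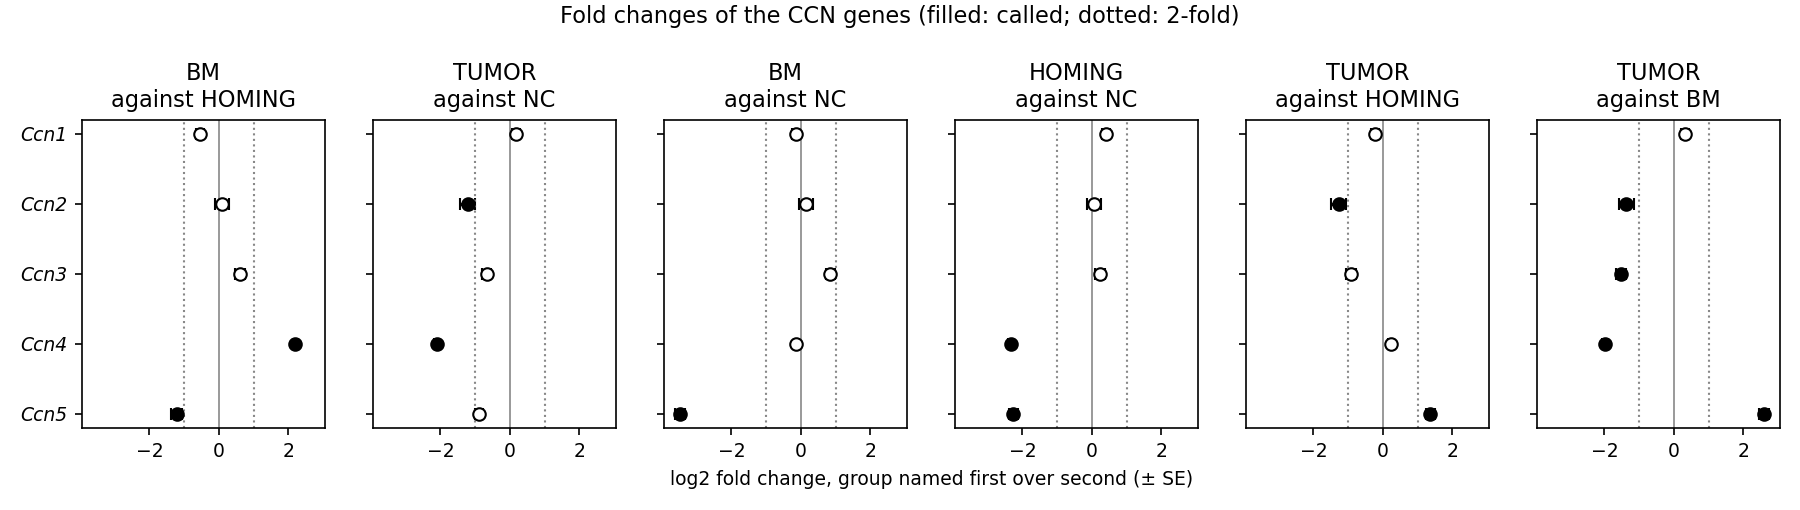
Log2 fold changes ± SE of the 5 CCN genes (horizontal axis, group named first over second) in the 6 comparisons, with filled points for called genes and dotted lines at 2-fold. Ccn4 lies at 2.20 in BM against HOMING and at -2.11 in TUMOR against NC, and Ccn1 stays within the dotted lines in each comparison.

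YAP/TAZ and TEAD target genes other than Ccn1 and Ccn2 fell in part in TUMOR against NC, and fewer fell in HOMING and BM against NC. The median log2 change of the list was -0.45 in HOMING against NC, -0.20 in BM against NC and -0.13 in TUMOR against HOMING. In TUMOR against NC 0 of 19 tested rose and 7 fell (median log2 change -0.66, against 0.009 for all tested genes). Of all tested genes 9.75% were called higher and 6.65% lower there. The growth arrest gene Gadd45a fell to 24.4 ± 0.595 FPKM in TUMOR, against 224.7 ± 7.63 in NC (log2 -3.33 ± 0.06, adjusted p 1.75e-12 in edgeR). The Hippo kinase gene Lats2 fell to 13.9 ± 1.68 FPKM in TUMOR, against 26.6 ± 0.533 in NC (log2 -1.10 ± 0.07), and the angiomotin-like scaffold gene Amotl2 to 55.7 ± 7.02, against 110.0 ± 3.59 in NC (log2 -1.11 ± 0.07). Igfbp3, which encodes a carrier of insulin-like growth factors, fell by log2 1.08 ± 0.12, a call that ended without TUMOR replicate 1 (log2 -0.99) or NC replicate 1 (log2 -0.90). Fjx1, Nuak2 and Rbms3 were the others that fell, and the call of Rbms3 ended without TUMOR replicate 1 (log2 -0.95). The count was 1 with limma on log2(FPKM + 1), 3 with scaling by library size and 5 without TUMOR replicate 1. The keratin genes Krt8 and Krt19 were higher in TUMOR in this comparison, and their part was not tested.

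In BM against HOMING the same list gave 2 higher and 1 lower of 19 (median log2 0.09). Of all tested genes 3.71% were called higher and 6.68% lower there. Gadd45a rose to 264 ± 16.2 FPKM in BM, against 30.1 ± 1.03 in HOMING (log2 3.16 ± 0.06, adjusted p 5.21e-12 in edgeR), and Igfbp3 to 48.3 ± 0.993, against 10.9 ± 0.40 in HOMING (log2 2.17 ± 0.11), while the kinase gene Nuak2 fell (log2 -1.30 ± 0.14). HOMING against NC gave 0 higher and 3 lower (Amotl2, Gadd45a and Rbms3), where 9.64% of all tested genes were higher and 4.69% lower. BM against NC gave 1 higher (Igfbp3) and 2 lower (Amotl2 and Nuak2), against 7.93% higher and 3.57% lower. TUMOR against BM gave 0 higher and 3 lower (Fjx1, Gadd45a and Igfbp3), against 6.95% higher and 7.28% lower. TUMOR against HOMING gave 0 higher and 0 lower, against 4.42% higher and 6.37% lower. The call of Fjx1 in TUMOR against BM ended without TUMOR replicate 2 (log2 -0.99) or BM replicate 3 (log2 -0.98). In TUMOR against HOMING DESeq2 also called 0, while 11 of the 19 had an unadjusted p under 0.05 in edgeR. On adjusted p alone 10 of the 19 passed there, against 55% of all tested genes. Of the 17 Hippo pathway and YAP/TEAD factor genes, edgeR and DESeq2 called 0 in BM against HOMING and 0 in BM against NC. In each, 14 of 17 had an unadjusted p under 0.05 in edgeR, and 14 passed on adjusted p alone. Of all tested genes 58.1% passed on adjusted p alone in BM against HOMING and 66.6% in BM against NC. In TUMOR against NC the kinase scaffold gene Sav1 rose (log2 1.78 ± 0.10) and the TEAD cofactor gene Vgll3 fell (log2 -1.75 ± 0.12). The coactivator genes Yap1 and Wwtr1 (TAZ), chosen after their values were seen, averaged 36.6 to 45.2 and 38.0 to 48.8 FPKM over the 4 groups and were called in no comparison.

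**Figure D4:**
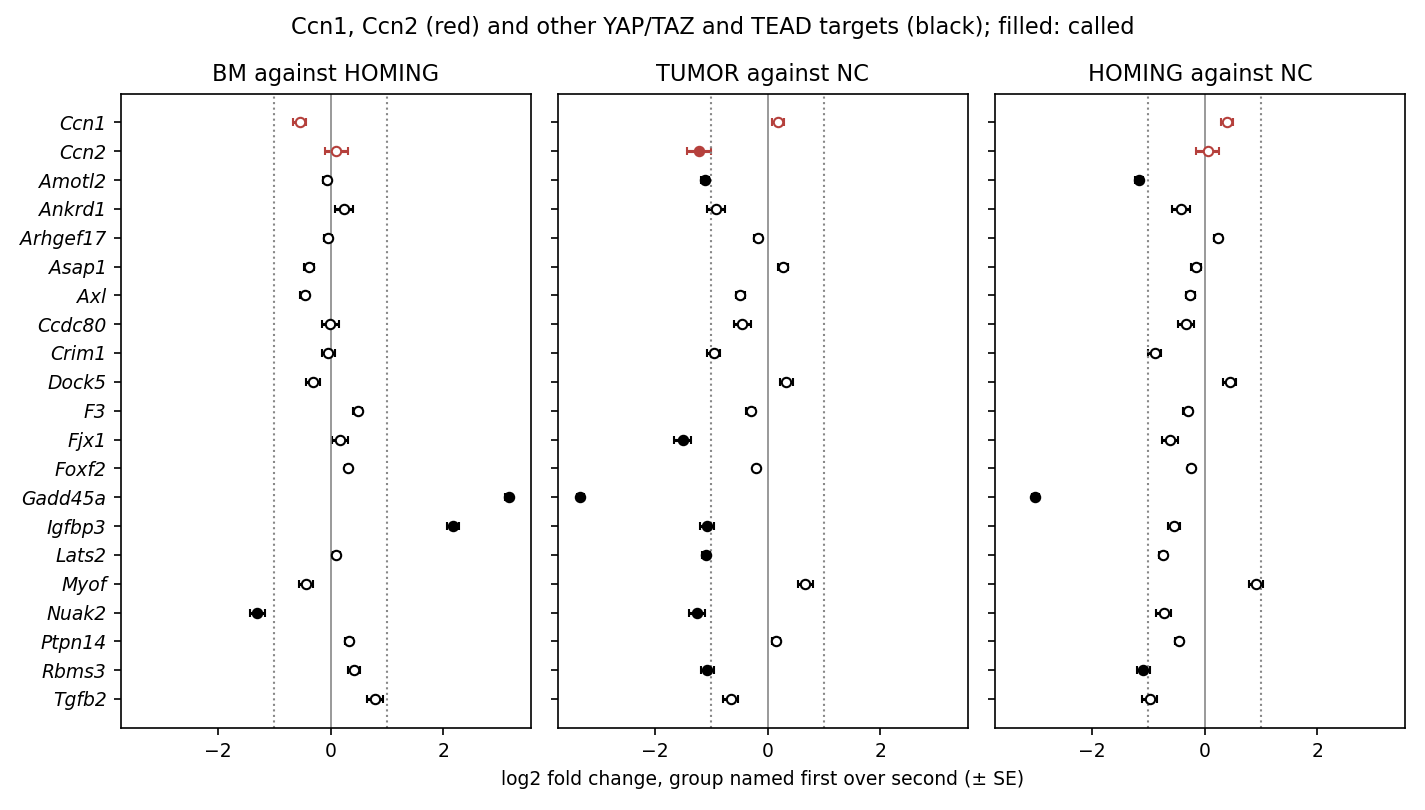
Log2 fold changes ± SE (horizontal axes, group named first over second) of Ccn1 and Ccn2 in red and the 19 other tested YAP/TAZ and TEAD targets in black, in 3 comparisons, with filled points for called genes. In TUMOR against NC 7 of the 19 lie below the lower dotted line, as Ccn2 does, and Ccn1 does not.

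The SRF and MRTF list holds contractile and adhesion genes and the factor genes Srf, Mrtfa and Mrtfb themselves. Of the genes in it 13 were tested. TUMOR against NC gave 0 higher and 4 lower, where 6.65% of all tested genes were called lower (median log2 change -0.69, against 0.009 for all genes). BM against NC gave 0 higher and 5 lower, where 3.57% of all genes were lower (median -0.76, against 0.0157). HOMING against NC gave 0 higher and 4 lower, where 4.69% of all genes were lower (median -0.55, against 0.00962). The count was 3 in TUMOR against NC without TUMOR replicate 1 or NC replicate 3. It was 3 in HOMING against NC without NC replicate 3, where Myl9 stood at log2 -0.94. Smooth muscle actin Acta2 fell to 124 ± 25.6 FPKM in TUMOR, 120 ± 5.15 in BM and 99.5 ± 5.64 in HOMING, against 341 ± 103 in NC (log2 -1.59 ± 0.20, -1.59 ± 0.20 and -1.89 ± 0.20, with adjusted p of 2.47e-06 to 1.64e-05 in edgeR). The focal adhesion gene Zyx fell in TUMOR to 259 ± 21.9 FPKM, against 567 ± 138 in NC (log2 -1.26 ± 0.14). In BM against HOMING the myosin light chain gene Myl9 was the one call, at 8.01 ± 0.399 FPKM in BM against 18.5 ± 1.78 in HOMING (log2 -1.18 ± 0.22). Limma on log2(FPKM + 1) gave 3 lower in BM against NC.

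Of 14 genes for TGF-beta ligands, receptors, SMAD factors and targets 0 rose and 3 fell in BM against HOMING, where Ccn2 was not called. Of all tested genes 3.71% were called higher and 6.68% lower there. The ligand gene Tgfb1 fell to 8.21 ± 0.397 FPKM in BM, against 33.6 ± 9.03 in HOMING (log2 -2.00 ± 0.15, adjusted p 2.1e-07 in edgeR), and the matrix gene Tgfbi to 2.72 ± 0.303 in BM, against 16.3 ± 5.07 in HOMING (log2 -2.55 ± 0.24). The count lower was 2 without HOMING replicate 1. Blood markers were high in HOMING, as Tgfb1 and Tgfbi were, and their part was not tested. TUMOR against NC gave 1 higher and 1 lower of the 14, where 9.75% of all tested genes were called higher and 6.65% lower. Ltbp2, which encodes a microfibril protein of the latent TGF-beta binding family, fell there (log2 -1.36 ± 0.16), the direction in which Ccn2 moved there.

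Wnt and beta-catenin targets were mostly low: 5 of 11 passed the filter. In BM against NC 0 rose and 2 fell, where 7.93% of all tested genes were called higher and 3.57% lower. Axin2 fell to 1.04 ± 0.0208 FPKM in BM against 2.16 ± 0.645 in NC, and Tcf7 to 2.15 ± 0.01 in BM against 4.23 ± 0.136 in NC. The Axin2 call ended without NC replicate 3 (log2 -0.85). Axin2 rose in TUMOR against BM (log2 1.02 ± 0.20, adjusted p 0.000554 in edgeR), a call that ended without TUMOR replicate 2 or 3. None of the 5 was called with edgeR in BM against HOMING, HOMING against NC, TUMOR against NC or TUMOR against HOMING, nor with DESeq2, while 2 to 4 of them had an unadjusted p under 0.05 in edgeR. Of all tested genes 10.4 to 16.4% were called in these comparisons. On adjusted p alone 55 to 73.6% of all tested genes passed, as did 2 to 4 of the 5. With limma on log2(FPKM + 1) or log2(FPKM + 0.1) the count in BM against NC was 0. On the scale with 0.1 Axin2 and Tcf7 each stood at log2 -0.95. The Tcf7 call also ended with scaling by library size (log2 -0.98).

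Genes for CCN receptors and binding partners gave 3 higher and 6 lower of 20 in BM against HOMING. Of all tested genes 3.71% were called higher and 6.68% lower there. Dcn and Vegfa were among the higher ones. Decorin, a proteoglycan that binds Ccn2 protein, had its gene Dcn at 605 FPKM on average in BM against 207 in HOMING (log2 1.58 ± 0.14), and the angiogenic factor gene Vegfa rose to 121 ± 2.58 FPKM in BM, against 59.2 ± 0.237 in HOMING (log2 1.07 ± 0.04). The lower ones were Fgf2, the leukocyte integrin genes Itgam and Itgb2, the platelet integrin genes Itga2b and Itgb3, and Notch1. The level of Itgam was 2.37 ± 0.0513 FPKM in BM against 39.9 ± 14.2 in HOMING. Itgam and Itga2b are also among the blood markers, and over the genes expressed in NC alone the count lower was 2. In TUMOR against NC 3 rose (Itgb3 and Notch1 among them) and 2 fell (Fn1 and Lrp1). Of all tested genes 9.75% were called higher and 6.65% lower there. Itgb3 was not called without NC replicate 2, and over the genes expressed in NC the count higher was 0. Fibronectin, a matrix partner of CCN proteins, had its gene Fn1 at 172 ± 22.9 FPKM in TUMOR against 573 ± 9.13 in NC (log2 -1.87 ± 0.08, adjusted p 1.1e-09 in edgeR), and Fn1 fell likewise in BM (238 ± 17.8 FPKM, log2 -1.35 ± 0.08 against NC) and HOMING (153 ± 2.64 FPKM, log2 -2.01 ± 0.08 against NC). Dcn had 65.7 FPKM in TUMOR against 605 in BM (log2 -3.24 ± 0.15), a fall in the direction of Ccn2 and Ccn3.

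Other matricellular genes split. In BM against HOMING 2 of 9 tested rose (Fbln5 and Smoc1) and 1 fell (Thbs1). Of all tested genes 3.71% were called higher and 6.68% lower there. Smoc1 averaged 0.57 FPKM in BM and 0.10 in HOMING, both under the level of the filter. Limma on log2(FPKM + 1) gave it 0.51 and did not call it. Thrombospondin 1, an inhibitor of angiogenesis, had its gene Thbs1 at 122.5 ± 5.80 FPKM in BM against 340.4 ± 25.8 in HOMING (log2 -1.45 ± 0.18, adjusted p 2.11e-05 in edgeR). Fbln5, an elastic fibre gene, was at 4.56 ± 0.177 FPKM in BM against 1.45 ± 0.125 in HOMING (log2 1.68 ± 0.08). In TUMOR against NC 1 rose (Smoc1, at 2.02 ± 0.873 FPKM in TUMOR against 0.02 ± 0.01 in NC) and 2 fell. There 9.75% of all tested genes were called higher and 6.65% lower. TUMOR was the only group with Smoc1 above 1 FPKM on average. Smoc1 was thus tested because of its TUMOR level, which favoured a rise there. When testing was limited to genes expressed in NC, 0 rose. Tenascin-C, a glycoprotein of remodelled matrix, had its gene Tnc at 7.74 ± 1.56 FPKM in TUMOR against 61.7 ± 28.3 in NC (log2 -3.13 ± 0.26), and Fbln5 fell to 1.79 ± 0.235 in TUMOR against 11.9 ± 0.503 in NC (log2 -2.85 ± 0.08). Like Ccn4, Fbln5 was higher in BM and NC than in TUMOR and HOMING, though its BM level was below that of NC (log2 -1.46 ± 0.08).

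The genes whose levels ran most like each member were taken by Pearson's r over the 12 libraries on log2(FPKM + 1). The search covered 8288 tested genes whose mean level reached 5 FPKM. It left out the CCN members, predicted genes (Gm numbers), Rik and LOC names and genes without a symbol. The 12 libraries fall into 4 groups of 3, so r mainly reflects 4 group means and is given as a description. For Ccn4 these were Uhrf1bp1, Tbc1d31, Shmt2, Trib3 and Akirin2 (r of 0.990 to 0.995). Shmt2, the mitochondrial serine hydroxymethyltransferase gene, averaged 199 FPKM in TUMOR, 404.5 in BM, 201 in HOMING and 404 in NC. The pseudokinase gene Trib3 averaged 23.7 FPKM in TUMOR, 92.9 in BM, 18.0 in HOMING and 101.2 in NC, the same high and low pairs as Ccn4. For Ccn3 they were Vcam1, Syt7, Nfkbie, Ptgs2 and U2af2 (r of 0.979 to 0.991). The adhesion gene Vcam1 averaged 7.27 FPKM in TUMOR, 25.0 in BM, 14.9 in HOMING and 10.7 in NC, and the prostaglandin synthase gene Ptgs2 averaged 40.5 FPKM in TUMOR, 200.2 in BM, 90.2 in HOMING and 61.4 in NC. For Ccn2 they were U90926, Ogg1, Slco2a1, Adam19 and Smyd5 (r of 0.964 to 0.980), of which the prostaglandin transporter gene Slco2a1 averaged 52.6 FPKM in TUMOR, 101.3 in BM, 90.6 in HOMING and 93.6 in NC. For Ccn5 they were Serpinb6a, Ski, Gadd45g, Mfn2 and Rraga (r of 0.976 to 0.984), all with smaller differences between groups than Ccn5; the SMAD corepressor gene Ski averaged 27.1 FPKM in TUMOR, 19.3 in BM, 22.5 in HOMING and 32.8 in NC. For Ccn1 they were Trim16, Smurf2, Celf2, Met and Emd (r of 0.935 to 0.950), of which Met, the hepatocyte growth factor receptor gene, averaged 15.5 FPKM in TUMOR, 11.8 in BM, 18.2 in HOMING and 12.8 in NC.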

How the data were processed

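RNA of 12 libraries was sequenced after TruSeq preparation, per the labels' protocols. Reads were mapped with Bowtie 0.12.2 to mm8, per the submitters' processing notes, while the sources used here do not name the counting program. The authors deposited, per transcript, expected counts (estimated reads, not normalized) and FPKM, rounded to 2 decimals. Both were summed per gene, transcripts not listed were set to 0, and 19629 of 19679 Entrez numbers matched a RefSeq symbol (GRCm38.p6). Genes without an Entrez number held 2.08 to 2.65% of counts.

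A gene was tested if 3 or more libraries had 1 FPKM or more of it (12314). Rounded counts were scaled by TMM and fitted over all 12 libraries in edgeR 4.0.16 (R 4.3.3), with a two-sided quasi-likelihood F-test per comparison, Benjamini-Hochberg adjustment over all 12314 genes, and calls at the thresholds given above. The test was checked on simulated data. Alternatives used limma 3.58.1 and DESeq2 1.42.0. The named genes were the 5 members, the 5 genes most like each, and up to 4 called members per list with the smallest adjusted p; other names were added after values were seen. Some genes counted in the lists are not reported here by name. The CCN genes and the 7 pathway and 7 marker lists were chosen with earlier results of these data known. Tables and plots used Python 3.11.15, pandas 2.3.3 and matplotlib 3.10.9.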

Additional observations from a re-analysis of the deposited data

How the results depend on the processing

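The number of CCN genes called kept within 1.5 times its value in HOMING against NC and TUMOR against BM under all alternatives. It was 1 in BM against HOMING with limma at a pseudocount of 1, where Ccn5 fell short at log2 -0.67. Leaving out 1 library gave 1 to 2 in TUMOR against NC (1 without TUMOR replicate 1 or NC replicate 3, with Ccn2 at -0.99) and 1 to 2 in BM against NC (2 without NC replicate 3, with Ccn3 at 1.08). With no minimum fold change the counts were 4 in BM against HOMING, 4 in TUMOR against NC, 2 in BM against NC and 4 in TUMOR against HOMING, where 58.1%, 73.6%, 66.6% and 55.0% of all genes passed. The sign of Ccn2, never called there, turned without NC replicate 1, in ranges of -0.03 to 0.38 for BM against NC and -0.13 to 0.28 for HOMING against NC; no other CCN gene turned in the alternatives run. Calls over all genes in BM against HOMING were 1280, against 2581 with no filter and 542 among genes expressed in NC, and in TUMOR against NC 2019, against 3420 with no filter and 1301 with limma at a pseudocount of 1. Counts in the other comparisons also passed 1.5 times with no filter (2537 to 3302, against 1329 to 1765) and among genes expressed in NC (542 to 1026), and with limma at a pseudocount of 1 in BM against NC (626) and TUMOR against BM (930). With no minimum fold change 6776 to 9068 genes passed. Scaling by library size put the median gene at log2 0.13 in TUMOR, 0.10 in BM and 0.12 in HOMING, each against NC, and 69.7% of the calls in TUMOR against NC were then higher, against 59.4%. The replicate numbers share no stated source: deviations of same-numbered libraries correlated at -0.12 to 0.224, and 1 to 4 of 6 libraries correlated best with their own number. With the replicate block the CCN counts were 2, 2, 1, 2, 2 and 4 in the order of the comparisons above (BM against HOMING, TUMOR against NC, BM against NC, HOMING against NC, TUMOR against HOMING, TUMOR against BM), and 1285 genes were called in BM against HOMING. Ccn5 has the fewest counts, 51 to 65 per BM library, which limits its BM value.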

Other observations

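Ratios between members were computed within each library. The Ccn1 to Ccn2 ratio of FPKM was 9.81 to 12.4 in TUMOR, 3.20 to 3.29 in BM, 4.86 to 5.25 in HOMING and 3.52 to 5.03 in NC. The Ccn2 to Ccn5 ratio was 6.08 to 9.22 in TUMOR, 110 to 144 in BM, 44.8 to 59.1 in HOMING and 7.94 to 12 in NC. The TUMOR libraries lay above all others in the first ratio and overlapped NC in the second. The ratios were chosen after the levels were seen and were not tested.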
